A study of Arabidopsis thaliana with 12 samples.

Results

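*AT1G68240* and *AT1G10585* are a pair of Arabidopsis genes annotated to the basic helix-loop-helix (bHLH) family of transcription factors. Both were chosen by a readout of these arrays, a rise in *hub1-2* and in *rdo3* siliques over L*er*. They are 2 of the 22810 probe sets on the array, 1 for each gene, and both are among the 64.4% of non-control probe sets that were bright enough to be kept for testing. The data go against the rule for one of them: *AT1G10585* was high in both mutants, but *AT1G68240* was high in *hub1-2* alone. In *rdo3* its signal was low and overlapped that in L*er*, which was also low.

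Transcripts were measured in nearly ripe siliques, the seed-bearing fruits of Arabidopsis, harvested 18 to 19 days after pollination. The plants were of the mutants *hub1-2* (labelled *rdo4*), *rdo3* and *rdo2-1* (labelled *rdo2*) and of the wild type Landsberg *erecta* (L*er*), the background of all 3 mutants. They received no treatment, grew on soil in long days, and gave 3 Affymetrix ATH1 arrays per genotype, 12 in all, each from its own biological replicate. All 3 mutants come from a screen for reduced seed dormancy. HUB1 is an enzyme that attaches ubiquitin to histone H2B, RDO2 is the transcription elongation factor TFIIS, and the sources used here do not name the gene behind *rdo3*. Each mutant is represented by 1 allele.

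bHLH proteins bind DNA as dimers, through a basic stretch next to a pair of helices joined by a loop. Many recognise the E-box, a short palindromic DNA motif. In Arabidopsis the family includes light-signalling factors such as PIF3, the jasmonate factor MYC2, factors of the iron response, and SPT and ALC, which act in the fruit. SPT is also known for a role in germination. No role of their own is assigned here to AT1G68240 or AT1G10585, since the array annotation and RefSeq give neither a symbol beyond the locus name.

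Levels are GC-RMA intensities, fluorescence signals corrected for background and probe base composition, in arbitrary units. They can be compared between arrays for 1 probe set, not between probe sets. The median of all probe sets on an array lay between 11.6 and 12.1, and is used here as a mark of low signal, because the table of values holds no detection calls. In whole siliques, fewer cells of a type and less RNA per cell cannot be told apart.

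*AT1G68240* had intensities of 167, 129 and 220 on *hub1-2* replicates 1, 2 and 3. It had 7.33, 9.80 and 8.77 on the *rdo3* arrays, 6.24, 6.04 and 7.09 on the *rdo2-1* arrays, and 7.71, 8.43 and 6.55 on the L*er* arrays. The 3 *hub1-2* arrays thus stood far above the other 9, which all lay under the median of their own array, where none of the *hub1-2* arrays did. The means were 172 ± 45.5 in *hub1-2*, 8.63 ± 1.24 in *rdo3*, 6.46 ± 0.56 in *rdo2-1* and 7.56 ± 0.95 in L*er* (SD, n = 3 each).

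*AT1G10585* had intensities of 141, 97.2 and 312 on *hub1-2* replicates 1, 2 and 3. On the *rdo3* arrays it had 400.0, 693 and 400.2, on the *rdo2-1* arrays 32.7, 18.8 and 18.9, and on the L*er* arrays 40.6, 66.2 and 52.7. This gene lay above the array median on all 12 arrays, so it was measured in every genotype. The means were 184 ± 114 in *hub1-2*, 498 ± 169 in *rdo3*, 23.4 ± 7.98 in *rdo2-1* and 53.1 ± 12.8 in L*er* (SD, n = 3 each).

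**Figure D1:**
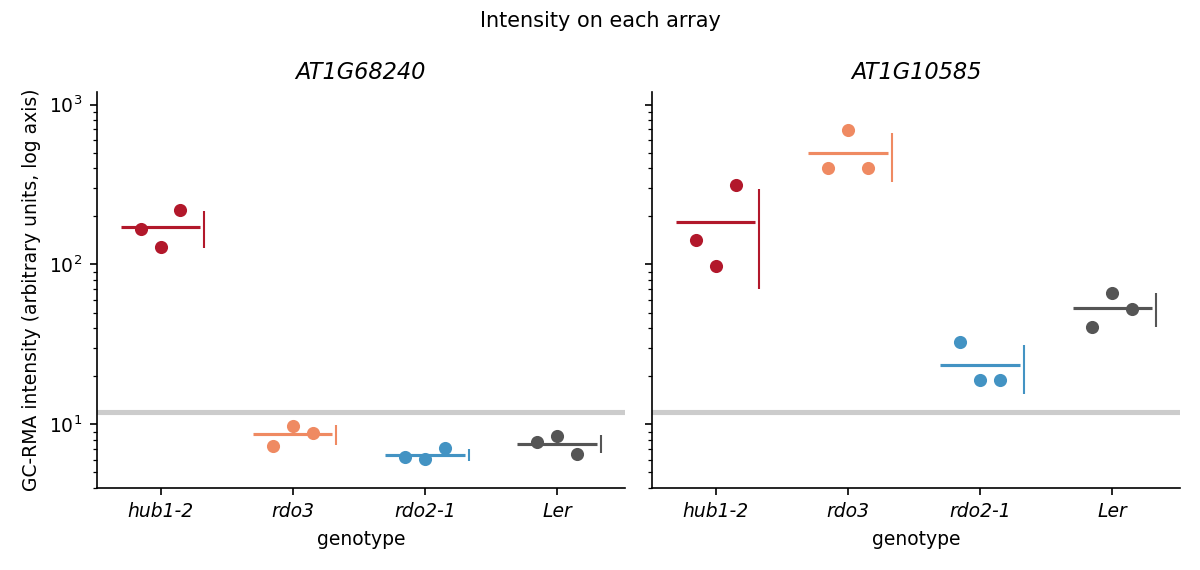
Intensity of *AT1G68240* (left) and *AT1G10585* (right) on each of the 12 arrays by genotype, in GC-RMA units on a log axis; points are arrays, horizontal lines are means, vertical lines run 1 SD to each side of the mean, and the grey band covers the array medians. *AT1G68240* stands above the band on the 3 *hub1-2* arrays only, and *AT1G10585* stands above it on all 12.

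The order of the genotypes differed between the genes. For *AT1G10585* it ran *rdo3*, *hub1-2*, L*er*, *rdo2-1* from high to low, and no array of one genotype overlapped the arrays of the next. For *AT1G68240* it ran *hub1-2*, *rdo3*, L*er*, *rdo2-1*, and only the step below *hub1-2* was free of overlap between neighbours: the *rdo3* and L*er* arrays overlapped, as did the L*er* and *rdo2-1* arrays. Taken singly, the steps of *AT1G10585* held for 19.2%, 24.4% and 13.4% of the kept probe sets, from high to low. The step of *AT1G68240* below *hub1-2* held for 24.7%.

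Since these levels served to choose the genes, their differences in *hub1-2* and *rdo3* from L*er* are given as a description, without a test. *AT1G68240* was 4.48 higher in *hub1-2* than in L*er* on the log2 scale, 22.3-fold between geometric means, which was the highest difference of all kept probe sets. With every intensity under its array's median raised to that median, the difference was 3.81, or 14.0-fold, and still the highest of all. In *rdo3* the same gene was 0.19 from L*er*, place 2698 from the top.

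*AT1G10585* was 3.21 higher in *rdo3* than in L*er* on the log2 scale, or 9.22-fold, the highest difference among the kept probe sets. The filter did not use the *rdo3* arrays, so a probe set bright in *rdo3* alone could be missing from this ranking. In *hub1-2* it was 1.64 higher than in L*er*, 3.12-fold, at place 93. The array order shows these differences without overlap: for both genes every *hub1-2* array was above every L*er* array, which held for 24.4% of the kept probe sets, and for *AT1G10585* every *rdo3* array was, which held for 9.23%. Nothing is read from these shares, because the choice of the genes used both contrasts.

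**Figure D2:**
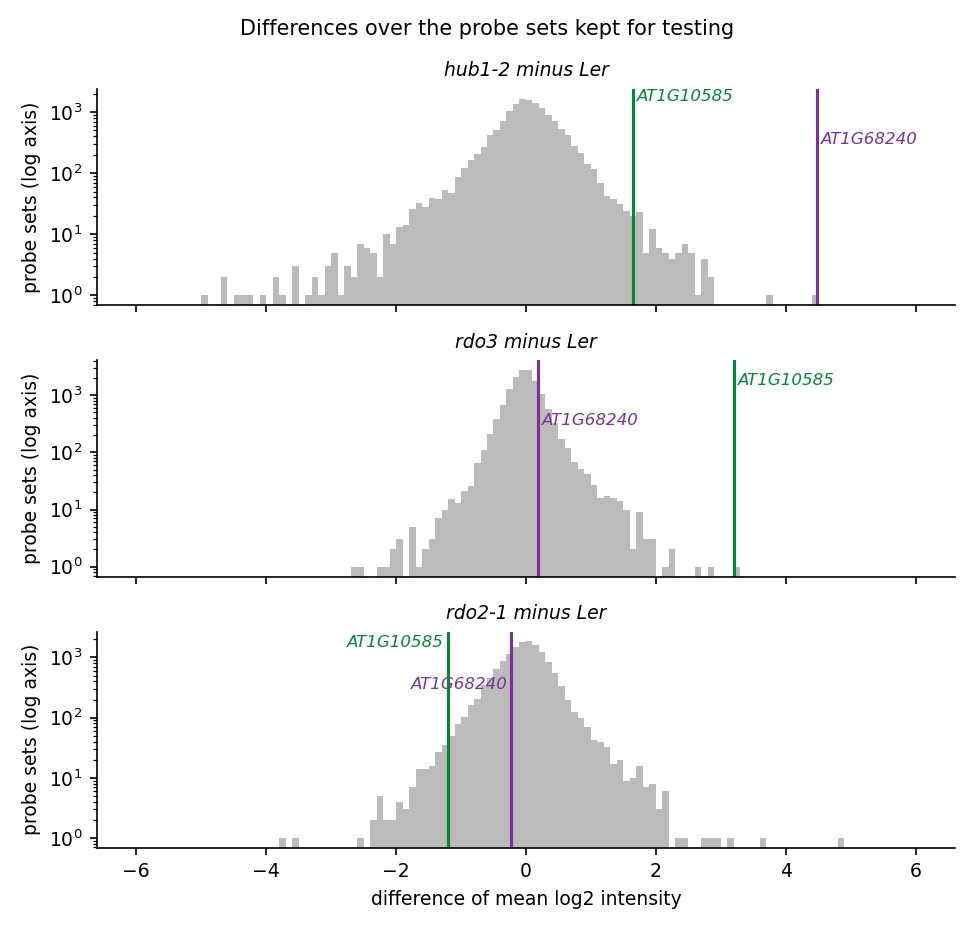
Histograms of the difference of mean log2 intensity from L*er* over the kept probe sets, in *hub1-2*, *rdo3* and *rdo2-1* (top to bottom), with the number of probe sets on a log axis and a vertical line for each bHLH gene. *AT1G68240* lies at the far right in *hub1-2* (4.48) and near the centre in *rdo3* (0.19) and *rdo2-1* (-0.22), while *AT1G10585* lies at the far right in *rdo3* (3.21) and on the left in *rdo2-1* (-1.20).

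The remaining mutant, *rdo2-1*, took no part in the choice, although its comparison shares the L*er* arrays with the choice. *AT1G10585* was lower in *rdo2-1* than in L*er*, whose geometric mean was 2.30-fold that of *rdo2-1*. All 3 *rdo2-1* arrays lay below all 3 L*er* arrays, as they did for 13.4% of the kept probe sets. The difference did not pass limma's threshold of 0.01 (log2 difference -1.20, standard error 0.28, adjusted p = 0.051 over all kept probe sets). CyberT, a regularised test on the same values, gave an adjusted p of 0.0094, under that threshold. In limma 0.143% of probe sets passed in this comparison, 21 in all, against 496 in CyberT.

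*AT1G68240* did not pass in *rdo2-1* under either tool (log2 difference -0.22, limma standard error 0.14, adjusted p = 0.38, and 0.38 in CyberT). Its *rdo2-1* and L*er* arrays overlapped, and all 6 lay under the array median, so a change at this level was not measured well.

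The mutants were also set against each other. *AT1G10585* was lower in *hub1-2* than in *rdo3*, whose geometric mean was 2.96-fold that of *hub1-2*. Every *hub1-2* array was below every *rdo3* array, as for 19.2% of the kept probe sets. *hub1-2* replicate 3, at 312, was the *hub1-2* array nearest to *rdo3*. The log2 difference was -1.56, and leaving out any 1 of the 6 arrays gave -2.04 to -1.19. No test is given for this comparison, for either gene, because the arrays of both mutants served to choose the pair.

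For *AT1G68240*, all 3 *rdo3* arrays lay under the array median. Raised to that median, they left *hub1-2* higher than *rdo3* by 3.82 on the log2 scale, or 14.1-fold, the highest difference among the kept probe sets treated the same way. As measured, the difference was 4.29. Its arrays in *hub1-2* were all above those in *rdo3*, as for 24.7% of the kept probe sets. Of the pair, *AT1G68240* thus had the wider difference in *hub1-2* and *AT1G10585* in *rdo3*.

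Against *rdo2-1*, the differences of *AT1G10585* were wider than against L*er*. For *AT1G68240* this cannot be told, because its *rdo2-1* and L*er* arrays all lay under the array median. *AT1G10585* was 4.41 higher in *rdo3* than in *rdo2-1* on the log2 scale, 21.2-fold and the highest of all kept probe sets, and 2.84 higher in *hub1-2* than in *rdo2-1*, 7.18-fold and at place 11. *AT1G68240* was 3.84 higher in *hub1-2* than in *rdo2-1* with the *rdo2-1* arrays raised to the array median, 14.4-fold, and 4.70 higher as measured. Its *rdo3* and *rdo2-1* arrays all lay under the array median, and no difference is given between them. In each of these 3 cases the arrays did not overlap, which held for 29.2% of probe sets in *hub1-2* against *rdo2-1* and for 13.6% in *rdo3* against *rdo2-1*. These values are a description, since the choice used the *hub1-2* and *rdo3* arrays.

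Both genes varied more between *hub1-2* replicates than most probe sets did. The SD of log2 intensity over the *hub1-2* arrays was 0.86 for *AT1G10585*, larger than in 99.5% of the kept probe sets, and 0.38 for *AT1G68240*, larger than in 95.3%. The median over kept probe sets was 0.13. For *AT1G10585* the spread was also wide in *rdo3* (0.46, larger than in 93.4%), in *rdo2-1* (0.46, 90.3%) and in L*er* (0.35, 83.5%). *AT1G68240* was nearer the middle there, at 0.21 in *rdo3*, 0.12 in *rdo2-1* and 0.18 in L*er*.

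The order of the replicates within each genotype was also compared between the genes. Replicate 3 was the highest *hub1-2* array for both genes, as was replicate 2 in *rdo3* and replicate 2 in L*er*, so this held in 3 of 4 genotypes. The lowest array was also the same in 3 of 4. Outside *hub1-2*, however, every array of *AT1G68240* lay under the array median, so its order there is one of low signals. How often other probe sets share an order in this way was not counted, and nothing is read from it. Over all 12 arrays the log2 intensities of the pair had a Pearson correlation of 0.33, a description over arrays that fall into 4 genotypes. At that value *AT1G68240* was only place 3529 among kept probe sets by likeness to *AT1G10585*.

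The genes whose pattern over the 12 arrays was most like each member were sought by Pearson correlation of log2 intensity among kept probe sets with 1 gene name. For *AT1G68240* the nearest was *AT4G15390*, annotated to a transferase family (r = 0.989), with mean intensities of 59.3 ± 8.45 in *hub1-2*, 14.2 ± 0.68 in *rdo3*, 12.4 ± 0.98 in *rdo2-1* and 15.0 ± 2.52 in L*er* (SD, n = 3 each). *AT1G02110*, annotated as a proline-rich family protein, followed (r = 0.988), with 78.8 ± 8.42 in *hub1-2*, 10.8 ± 2.34 in *rdo3*, 7.83 ± 1.57 in *rdo2-1* and 11.6 ± 1.15 in L*er*. Both had their high level in *hub1-2* alone, like *AT1G68240*, with differences from L*er* of 1.99 and 2.77 on the log2 scale. The others were *AT5G61330* (rRNA processing), *AT1G02370* (a pentatricopeptide repeat protein) and *AT5G15550* (a WD-40 repeat protein), with r between 0.981 and 0.984 and differences of 0.74, 2.36 and 1.36 in *hub1-2*.

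For *AT1G10585* the nearest was *UGT76B1*, a glucosyltransferase gene whose enzyme acts on isoleucic and salicylic acid (r = 0.957). Its means were 913 ± 322 in *hub1-2*, 1693 ± 177 in *rdo3*, 290 ± 64.2 in *rdo2-1* and 601 ± 114 in L*er* (SD, n = 3 each). It had the same order of genotype means as *AT1G10585*, with *rdo3* highest and *rdo2-1* lowest. *GH3.17*, which joins the hormone auxin to an amino acid, came next but one (r = 0.921), with 492 ± 112 in *hub1-2*, 551 ± 127 in *rdo3*, 118 ± 15.9 in *rdo2-1* and 236 ± 44.5 in L*er*. *AT5G06570* (r = 0.933), *AT1G61420* (r = 0.915) and *SEN1*, a gene linked to leaf senescence and darkness (r = 0.909), made up the rest. Each of the 5 was highest in *rdo3* and lowest in *rdo2-1* by its mean. Their log2 differences from L*er* were 0.94 to 1.51 in *rdo3*, 0.46 to 1.05 in *hub1-2* and -1.06 to -0.44 in *rdo2-1*. As these genes were picked for their likeness to genes that were themselves picked, their differences carry no test.

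**Figure D3:**
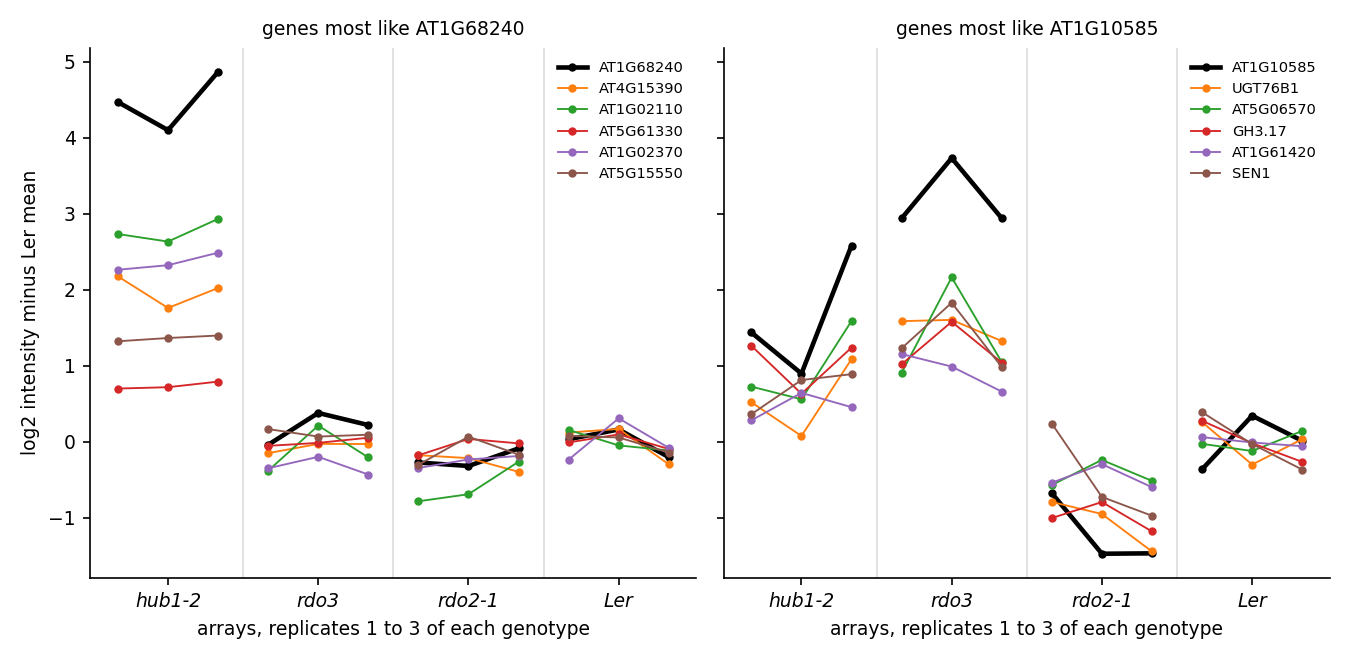
Log2 intensity minus the mean of the 3 L*er* arrays, on each array, for *AT1G68240* and the 5 named genes most like it (left) and for *AT1G10585* and the 5 most like it (right); points are arrays and lines join replicates of 1 genotype only to guide the eye. The left-hand genes are raised on the *hub1-2* arrays alone. By their means, the right-hand genes are high in *rdo3*, raised less in *hub1-2* and low in *rdo2-1*.

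None of the tested genes near each member on chromosome 1 passed the threshold in any mutant, in limma or in CyberT. limma called 5.53% of all probe sets higher and 3.92% lower in *hub1-2*, 0.143% in *rdo2-1* and 0.0205% in *rdo3*. CyberT called 9.7% higher and 7.31% lower in *hub1-2*, 1.63% and 1.75% in *rdo2-1*, and 0.764% and 0.246% in *rdo3*. At these shares, a lack of calls among so few genes says little about the neighbours. Neighbours were taken from RefSeq's gene order in the assembly TAIR10.1, as the nearest 2 on each side with a named probe set. They stood 1 to 5 genes away and up to 12728 bp off, so not all are adjacent. Near *AT1G68240*, *AT1G68220* had 2019 ± 46.9 in *hub1-2*, against 1663 ± 159 in L*er* (log2 difference 0.28, limma adjusted p = 0.051). *AT1G68250* had 1189 ± 266 in *hub1-2*, against 1081 ± 483 in L*er* (SD, n = 3 each). *AT1G68230* and *AT1G68270* were too dim to be kept, at intensities between 2.92 and 5.93 on the 12 arrays.

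Beside *AT1G10585* stands *AT1G10580*, whose gene model overlaps that of *AT1G10585* in the annotation. It had means of 137 ± 5.07 in *hub1-2*, 147 ± 18.0 in *rdo3*, 124 ± 26.7 in *rdo2-1* and 112 ± 16.7 in L*er* (SD, n = 3 each), and its log2 differences from L*er* were 0.30, 0.40 and 0.14 in the 3 mutants. *XTH33*, a cell-wall xyloglucan enzyme gene, had 18.7 ± 8.32 in *rdo3*, against 9.06 ± 1.65 in L*er*, with a limma adjusted p of 0.24. *AT1G10590* and *AT1G10610* differed from L*er* by between -0.13 and 0.17 on the log2 scale over the 3 mutants. *AT1G10586*, the gene adjacent to *AT1G10585* on the other side, was not analysed here.

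The rest of the family was followed through a list of 81 other bHLH genes, of which 30 had a named probe set and 22 were bright enough to be tested. Of the 22, 9 had their name only through the study's list of genes changed in *hub1-2* or *rdo2-1*, chosen on these samples. That choice raises the counts of calls in both of these mutants, so the counts are not independent evidence. In *hub1-2*, 4 of the 22 were higher and 1 was lower than L*er* in limma, where 5.53% of all probe sets were higher and 3.92% lower, and in CyberT 7 were higher and 4 lower, where 9.7% and 7.31% of all probe sets were. At an unadjusted p under 0.05, 12 of the 22 passed in limma, against 37.5% of all probe sets. In *rdo3* and in *rdo2-1*, limma called none of the 22, with 2 and 7 at an unadjusted p under 0.05, where 10.5% of all probe sets passed in *rdo3* and 21.4% in *rdo2-1*. CyberT called 0 in *rdo3*, where it called 0.764% of all probe sets higher and 0.246% lower. In *rdo2-1* it called 1 higher, *UNE10*, against 1.63% of all probe sets higher and 1.75% lower. The name of *UNE10* also came through the study's list of changed genes. In *rdo3* 0.0205% of all probe sets were called higher in limma, 3 in all. With so few calls, the count of 0 in *rdo3* says little about the family. The list's median log2 difference was 0.05 in *hub1-2*, 0.02 in *rdo3* and 0.16 in *rdo2-1*, against 0.02, -0.01 and -0.01 over all tested probe sets.

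The 4 genes that rose in *hub1-2* include 2 light-signalling factors. *HFR1*, an atypical bHLH gene of the shade and light response, had 538 in *hub1-2*, against 161 in L*er* (log2 difference 1.73, standard error 0.14, adjusted p = 1.8e-04 in limma). *PIF3*, whose protein binds the light receptor phytochrome, had 31.3 in *hub1-2*, against 12.1 in L*er* (1.37, standard error 0.19, adjusted p = 0.0018). The others were *BHLH093* (1.33, adjusted p = 0.0014) and *UNE12* (1.00, adjusted p = 0.0058). The names of all 4 come from the study's own list of changed genes, which was chosen on these samples. These calls are therefore not independent evidence of a change or of its direction. Among the 13 tested genes named by the array annotation, limma called none higher and 1 lower in *hub1-2*.

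That gene was *ALC*, which acts in the opening of the ripe fruit. It had 21.4 in *hub1-2*, against 48.6 in L*er* (log2 difference -1.17, standard error 0.17, adjusted p = 0.0022 in limma), but 108 in *rdo2-1* (1.09, adjusted p = 0.079). The 4.48 of *AT1G68240* in *hub1-2* lay beyond all 22 genes of the list, of which *HFR1* was highest there, while the 1.64 of *AT1G10585* lay just under the 1.73 of *HFR1*. In *rdo3* the 3.21 of *AT1G10585* lay beyond all 22, of which *MYC3* was highest at 0.40 and did not pass. Because the pair was chosen for its rises, nothing is read from where it stands against the list.

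**Figure D4:**
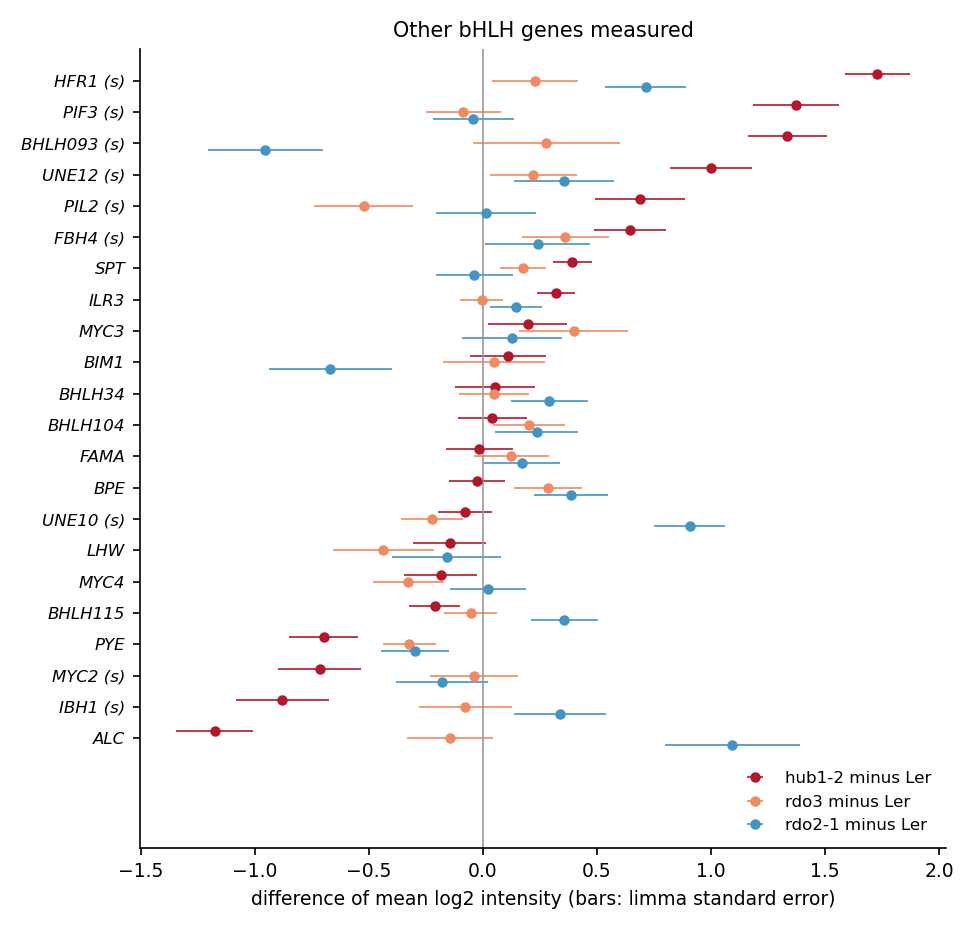
Differences of mean log2 intensity from L*er* for the 22 other bHLH genes tested, in *hub1-2*, *rdo3* and *rdo2-1*, ordered by the *hub1-2* value; bars are limma standard errors (3 arrays per genotype) and (s) marks names taken from the study's list of changed genes. The *hub1-2* values run from -1.17 for *ALC* to 1.73 for *HFR1*, while the *rdo3* values stay between -0.52 and 0.40.

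A pair of shorter lists gave no limma calls. Of 24 genes of jasmonate synthesis, repression and response, 6 had a name and were tested, all through the study's list of changed genes, so that their counts of calls are raised by that choice and are not independent evidence. Their median log2 difference was -0.53 in *hub1-2*, 0.04 in *rdo3* and 0.60 in *rdo2-1*, with 4, 1 and 4 of the 6 at an unadjusted p under 0.05 in limma in that order, against 37.5%, 10.5% and 21.4% of all probe sets. CyberT called 1 higher and 3 lower in *hub1-2*, none in *rdo3* and 3 higher in *rdo2-1*, against the CyberT shares of all probe sets given for the family. *LOX2*, an enzyme gene of jasmonate synthesis, was at 1671 in *hub1-2*, against 3657 in L*er* (adjusted p = 0.012 in limma). Of 10 regulators of embryo identity, *FUS3*, a master regulator of seed maturation, was at 65.5 in *hub1-2*, against 161 in L*er* (log2 difference -1.28, adjusted p = 0.011 in limma), and *BBM* differed by -0.06. CyberT called *FUS3* lower there, as it did 7.31% of all probe sets, and neither gene in *rdo3* or *rdo2-1*. *FUS3* was named through the study's list of changed genes, so its call is not independent evidence. *ECP63*, a late embryogenesis gene set for comparison, was not analysed here.

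Markers of seed and fruit tissue varied between genotypes. The seed maturation genes *SESA1*, *EM6* and *M17*, the only 3 of 10 listed that were named, were above the array median on all 12 arrays, and their summed intensity, most of it from *SESA1* and *EM6*, was 49671 to 54801 in *hub1-2*, 53055 to 54087 in *rdo3*, 49065 to 56114 in *rdo2-1* and 47966 to 51525 in L*er*. The sum hides opposite shifts of its 2 main genes in *hub1-2*. There *SESA1* had 26983 ± 827, against 30935 ± 289 in L*er*, while *EM6* had 22979 ± 2376, against 18493 ± 1233 (SD, n = 3 each). In *rdo3* and *rdo2-1* the means were 30347 and 31243 for *SESA1* and 20157 and 19155 for *EM6*. The sum also does not show *M17*. It had 2739 ± 403 in *hub1-2*, 2934 ± 378 in *rdo3*, 1346 ± 572 in *rdo2-1* and 552 ± 345 in L*er* (SD, n = 3 each). *M17* was thus highest in the same mutants as *AT1G10585*, but its mean in *rdo2-1* was above that in L*er*, where *AT1G10585* was below. *BAN* (seed coat) and *AMS* (anther) were below the array median on all 12 arrays. The senescence gene *NAP* ranged from 32.9 to 74.1 in *hub1-2*, 152 to 227 in *rdo3*, 296 to 400 in *rdo2-1* and 141 to 213 in L*er*, so that it was lowest in *hub1-2* and highest in *rdo2-1*, where *AT1G10585* was lowest. The part of seed maturation or fruit ripening in the levels of either gene was not tested. The *HUB1* transcript itself was at 180 ± 27.7 in *hub1-2*, 62.4 ± 20.2 in *rdo3*, 41.3 ± 6.22 in *rdo2-1* and 78.5 ± 9.73 in L*er* (SD, n = 3 each), so its level, higher in the mutant, does not check the label.

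The differences of the pair kept their sign under each other scaling, floor or left-out array that gave a value. For *AT1G10585*, leaving out 1 array at a time gave 1.17 to 2.01 in *hub1-2*, 2.94 to 3.38 in *rdo3* and -1.47 to -1.03 in *rdo2-1*, each against L*er* on the log2 scale. For *AT1G68240* in *hub1-2* it gave 4.29 to 4.67.

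**Figure D5:**
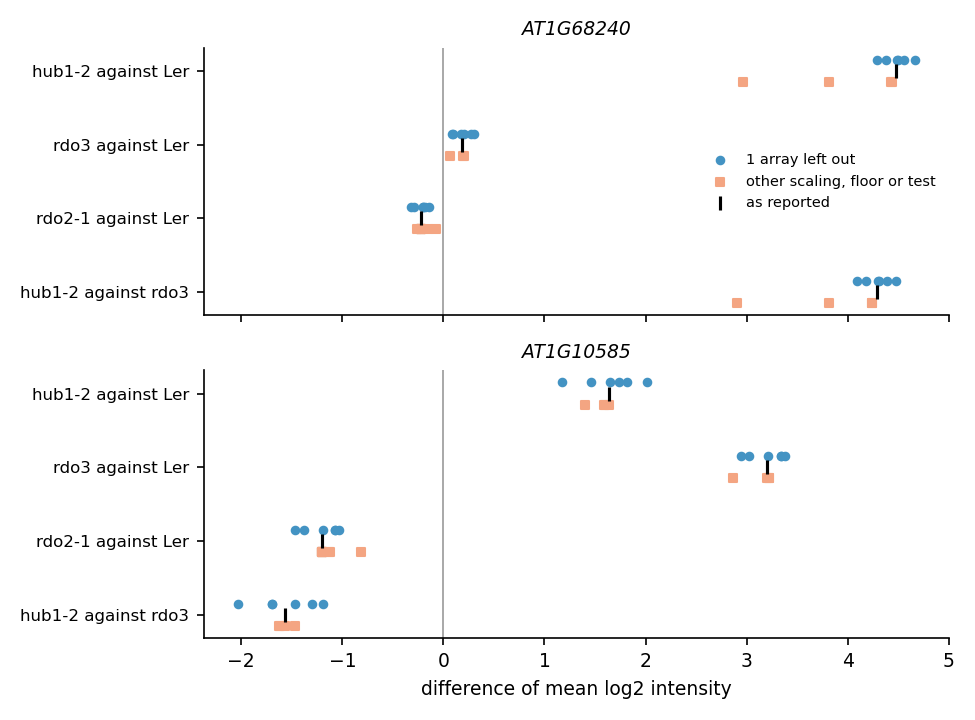
Differences of mean log2 intensity of *AT1G68240* (top) and *AT1G10585* (bottom) in 4 comparisons as reported (black line), with 1 array left out (circles) and under other scalings, floors or tests (squares). No value crosses 0, and the squares of *AT1G68240* in *hub1-2* lie lower where low intensities are raised by a floor or a pseudocount.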

How the data were processed

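Siliques of 4 genotypes were measured on 12 Affymetrix ATH1 arrays. The authors processed the arrays by GC-RMA in Expressionist Pro 5.1 and deposited linear intensity values. The study's methods describe 9 arrays, without *rdo3*, and do not say whether the *rdo3* arrays were normalized with them. Groups follow the labelled genotype.

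Intensities were turned into log2 values without a pseudocount. After removal of 64 control probe sets, the others were ranked by their second-highest intensity on the 9 *hub1-2*, *rdo2-1* and L*er* arrays. As many as passed the study's detection filter were retained, 64.4% of them, down to a value of 7.51. *AT1G68240* passed through *hub1-2*, at 167, but over the L*er* and *rdo2-1* arrays alone its second-highest value, 7.71, also lay above the limit. *AT1G10585* had 52.7 over those. limma 3.58.1 in R 4.3.3 compared genotypes, 6 arrays at a time, with a trended prior, Benjamini-Hochberg adjustment over the retained probe sets and calls under 0.01. CyberT, the study's test, was run on the same log2 values (window 101, prior weight 10). The number of arrays limits the precision of every value. On simulated data for *rdo2-1* against L*er*, limma recovered 34 of 100 changes of 1 on the log2 scale and 87 of 100 changes of 2. A limma test planned for the pair in *hub1-2* against *rdo3* is not reported, since those arrays served to choose the genes.

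Of the kept probe sets, 8063 were named by the array annotation with 1 gene and 1117 through the study's list of changed genes, from which only names were used. Named genes were the pair, the 5 most alike genes, 2 neighbours on each side, the called bHLH genes (up to 5 in each direction), called genes of the other lists, *ECP63* and *HUB1*. *LOX2*, *FUS3*, *BBM*, *MYC3*, *UNE10* and the markers were named outside that rule, after their values were seen. Other normalizations, filters, floors, fits and left-out arrays were tried. The pair and the lists were chosen with earlier results of these data known.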

Additional observations from a re-analysis of the deposited data

Results flagged for a closer look

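For *AT1G10585* the mutants lay on opposite sides of the wild type: every *hub1-2* array and every *rdo3* array lay above all L*er* arrays, and every *rdo2-1* array lay below them. Taken singly, these held for 24.4%, 9.23% and 13.4% of the kept probe sets in that order. The *rdo2-1* difference from L*er* did not pass in limma (-1.20, adjusted p = 0.051), and those of *hub1-2* and *rdo3* carry no test. The log2 difference was 2.84 between *hub1-2* and *rdo2-1* and 4.41 between *rdo3* and *rdo2-1*, and neither was tested, because the *hub1-2* and *rdo3* arrays served to choose the gene. All 3 comparisons share the L*er* arrays.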

How the results depend on the processing

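The pair's differences kept their direction under all alternatives that gave a value. For *AT1G10585* in *rdo2-1* against L*er* (-1.20) the difference passed in CyberT (adjusted p = 0.0094) and in none of the other alternatives, where adjusted p ranged between 0.035 and 0.13. For *AT1G68240* in *rdo2-1* against L*er*, where both genotypes lie at low signal, the adjusted p was 0.30 to 0.63 over the alternatives. With a pseudocount of 16, *AT1G68240* differed by 2.97 in *hub1-2* against L*er*, 2.90 in *hub1-2* against *rdo3* and 3.04 in *hub1-2* against *rdo2-1*, and *AT1G10585* by 3.67 in *rdo3* against *rdo2-1*. With intensities floored at the array median, the first 3 were 3.81, 3.82 and 3.84. No value exists under that floor for *AT1G68240* among *rdo3*, *rdo2-1* and L*er*, which all fall on it. The alternatives for comparisons with *rdo2-1* other than that with L*er* were chosen after seeing the data.

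Counts of called probe sets moved more. In *rdo2-1* against L*er* the count of 21 became 9 without the trend in the prior spread, 269 with all 12 arrays in the fit, 41 with arrays centred on their median, 0 with the floor, 496 in CyberT and 448 under 0.05. In *hub1-2* against *rdo3* the count of 1644 became 1023 with the floor, 2755 in CyberT and 3885 under 0.05. In *hub1-2* against L*er* the count of 1385 became 772, 2493 and 3526 in the same order. In *rdo3* against L*er* the count of 3 became 0 without the trend, 14 with all 12 arrays, 5 with centred arrays, 0 with the floor, 148 in CyberT and 36 under 0.05. Leaving out 1 array gave 3 to 69, 511 to 2337, 398 to 1395, and 0 in every case, for the 4 comparisons in this order. At an unadjusted p under 0.05, limma had 1542 probe sets in *rdo3* against L*er*. Centring the arrays turned the split in *hub1-2* against L*er* to 679 higher and 683 lower, against 810 and 575 as reported, and in *hub1-2* against *rdo3* to 738 and 769, against 950 and 694.

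Whether the replicate numbers pair the arrays was not settled, and the reported fits do not pair them. For a check, each probe set's genotype mean was subtracted from its log2 values, and the remaining deviations were correlated between arrays. In these deviations, same-numbered arrays of *rdo2-1* and L*er* had correlations of -0.09, 0.26 and 0.39. The deviations of differently numbered arrays of these genotypes had correlations between -0.40 and 0.18. With the replicate number as a block the counts were 185, 970, 871 and 0 in the same order, and the block changed no call of the pair in *rdo2-1* against L*er*. Of the family genes, *UNE12* lost its call in 7 of the alternatives, *ALC* without any 1 *hub1-2* array and *PIF3* without *hub1-2* replicate 3.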
